A study of Mus musculus with 12 samples.

Results

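The transcripts of the 3 colony-stimulating factors *Csf1* (macrophage colony-stimulating factor, M-CSF), *Csf2* (granulocyte-macrophage colony-stimulating factor, GM-CSF) and *Csf3* (granulocyte colony-stimulating factor, G-CSF) were measured in 12 B16.F10 tumors on a NanoString nCounter panel of 43 immune genes and 5 house-keeping genes. The 3 genes were chosen by name, and all 3 had a value in all 12 tumors. B16.F10 is a murine melanoma cell line, and the tumors had been grown under the skin of female C57BL/6J mice aged 6 to 8 weeks. At a volume of about 200 mm3, each tumor received a single intratumoral injection of 100 µL and was harvested 6 hours later. The 4 tumors of the PBS group received buffer, and the 4 of the D-PDB group received the free endosomolytic polymer that serves as the carrier. The 4 of the NanoISD group received that polymer complexed with immunostimulatory double-stranded DNA at 2 µg of DNA. The amount of free polymer in the D-PDB injections is not stated separately for these tumors. Free DNA without the carrier was not among the groups.

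Each deposited value is the log2 fold change of a gene in a tumor against the PBS-treated tumors, after scaling to the house-keeping genes, so that 1 unit is a doubling. The values hold no counts, so the depth behind them is unknown, as is how far it limits the precision beside the number of tumors. For the same reason, the abundance of *Csf1* cannot be set against that of *Csf2* or *Csf3*, and only their changes can be compared. The tumors were whole tissue, in which a larger number of producing cells and more RNA per cell cannot be told apart. Of 20 marker genes for melanoma cells, leukocyte types, endothelium, fibroblasts and platelets, only the platelet genes *Pf4* and *Ppbp* were on the panel, so the labelled tissue could not be checked against its markers.

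Colony-stimulating factors are secreted glycoproteins named for the blood cell colonies that they support in culture. M-CSF acts through the receptor tyrosine kinase encoded by *Csf1r* and maintains monocytes and macrophages, including those within tumors. GM-CSF acts on granulocytes, macrophages and dendritic cells through a receptor that shares its beta chain with those of IL-3 and IL-5. G-CSF drives the production of neutrophils and their release from bone marrow. Fibroblasts, endothelial cells, macrophages and some tumor cells can all produce these factors, and transcription factors of the NF-κB family, which are activated downstream of cGAS and STING, are known regulators of them. None of the 5 receptor genes listed for them (*Csf1r*, *Csf2ra*, *Csf2rb*, *Csf2rb2*, *Csf3r*) was on the panel, so the data describe the ligands alone.

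In the mouse annotation *Csf1* lies on chromosome 3, and *Csf2* and *Csf3* on chromosome 11. *Csf2* neighbors *Il3*, the gene of the related cytokine IL-3, with 0 annotated genes between them, whereas 1401 annotated genes lie between *Csf2* and *Csf3*. No upstream window was available for *Csf3*. For *Csf1* and *Csf2*, windows were taken from RefSeq, the 250 bases before the annotated start of each gene. The values of each gene can thus be read beside these windows. They are given 5′ to 3′ on the strand of the gene, and capitals mark the matches to 5 motifs searched on both strands.

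Csf1, GRCm38.p6 chr3:107760470-107760719, minus strand: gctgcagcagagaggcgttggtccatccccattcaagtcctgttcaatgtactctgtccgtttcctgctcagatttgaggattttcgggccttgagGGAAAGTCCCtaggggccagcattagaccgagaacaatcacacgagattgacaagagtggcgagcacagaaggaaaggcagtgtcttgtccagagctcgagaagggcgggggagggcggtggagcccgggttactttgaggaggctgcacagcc

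Csf2, GRCm38.p6 chr11:54249900-54250149, minus strand: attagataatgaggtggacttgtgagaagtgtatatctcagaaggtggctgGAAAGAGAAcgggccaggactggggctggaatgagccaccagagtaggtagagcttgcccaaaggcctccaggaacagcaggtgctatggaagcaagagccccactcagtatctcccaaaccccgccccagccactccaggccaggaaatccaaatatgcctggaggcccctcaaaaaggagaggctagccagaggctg

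The capitals in *Csf1* mark a match to the NF-κB consensus on the opposite strand, 154 to 145 bases before the start. A match to this consensus was held by 3.90% of the 32851 windows of the same length in the table. The capitals in *Csf2* mark a match to GAAANNGAA, a short form of the interferon-stimulated response element, 199 to 191 bases before the start, which 7.13% of windows held. Neither window matched GAGATTCC (the CK-1 or colony-stimulating factor box, 0.755% of windows), TGANTCA (AP-1, 6.75%) or TATAAA (the TATA box, 12.4%). Each window ends at the outer edge of the annotated gene, and bases inside the gene, where other transcripts may start, were not searched. The lack of a match therefore holds for these 250 bases only and not for the promoter as a whole. The matches are descriptions of these letters and were not tested for binding.

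*Csf1* was higher after NanoISD than after PBS in 3 of 4 tumors. Its log2 values were 2.39, 0.08, 2.51 and 2.27 in NanoISD tumors 1, 2, 3 and 4. They were 0.21, -0.19, 0.09 and -0.11 in the PBS-treated tumors. The NanoISD-treated tumors thus fell into 3 that lay far above every PBS-treated tumor and 1, tumor 2, that lay within the PBS range. The NanoISD mean was 1.81 ± 1.16 (SD, n = 4), against a PBS mean of 0.00 ± 0.18 (SD, n = 4). This corresponds to a 3.51-fold difference (95% interval 1.70 to 7.25), which passed the threshold in limma (adjusted p = 0.0115). Without NanoISD tumor 2, the lowest of its group, the difference was 2.39 on the log2 scale (adjusted p = 6.16e-05 in limma). Without NanoISD tumor 1, 3 or 4 it was 1.62, 1.58 and 1.66 (adjusted p = 0.0217, 0.0352 and 0.0300 in limma). With any single tumor left out, the adjusted p in limma reached at most 0.0365. The exact permutation test on *Csf1* by itself gave p = 0.0857, since this test cannot reach its smallest value of 0.0286 while a tumor of the treated group overlaps with the controls.

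*Csf3* was the only one of the 3 factors whose NanoISD-treated tumors all lay above all PBS-treated tumors. The log2 values were 2.40, 1.15, 2.37 and 1.70 in NanoISD tumors 1 to 4. The PBS-treated tumors were at -0.07, 0.22, -0.07 and -0.07. The NanoISD mean was 1.91 ± 0.60 (SD, n = 4), against a PBS mean of 0.00 ± 0.15 (SD, n = 4). The difference was 1.90 on the log2 scale, or 3.74-fold (95% interval 2.02 to 6.91), and passed in limma (adjusted p = 0.00476). It passed in each of the 24 alternative settings, with log2 differences between 1.74 and 2.15. Of these settings, the exact permutation test was judged on an unadjusted p (0.0286), the smallest that it can reach. The others were judged on the adjusted p in limma. The value of -0.07 was the lowest of *Csf3* and was shared by 5 tumors, 3 treated with PBS and 2 with D-PDB, so that these 5 have no order among themselves. Whether this value is a detection limit was not tested. If it is, the fold is a lower bound, and the PBS SD and the interval do not hold the spread below it. Of the 43 panel genes, only *Ccl20* (8 tumors) and *Cxcl17* (10 tumors) also had a lowest value shared by 5 or more tumors.

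*Csf2* had the smallest mean difference of the 3 factors and did not pass the threshold. Its log2 values were 2.27, 0.49, 1.78 and 0.26 in NanoISD tumors 1 to 4, and 0.36, -0.05, -0.04 and -0.27 in the PBS-treated tumors. Tumors 1 and 3 were high, tumor 2 was slightly above the highest PBS-treated tumor, and tumor 4 lay within the PBS range. The NanoISD mean was 1.20 ± 0.98 (SD, n = 4), against a PBS mean of 0.00 ± 0.26 (SD, n = 4). The difference of 1.20, or 2.30-fold, had a 95% interval of 1.08-fold to 4.87-fold before adjustment (limma, unadjusted p = 0.0324, adjusted p = 0.0607). It passed when NanoISD tumor 2 (adjusted p = 0.0286), NanoISD tumor 4 (adjusted p = 0.0312) or D-PDB tumor 2 (adjusted p = 0.0471) was left out. It did not pass in the other 21 alternatives, where the adjusted p reached 0.170.

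**Figure D1:**
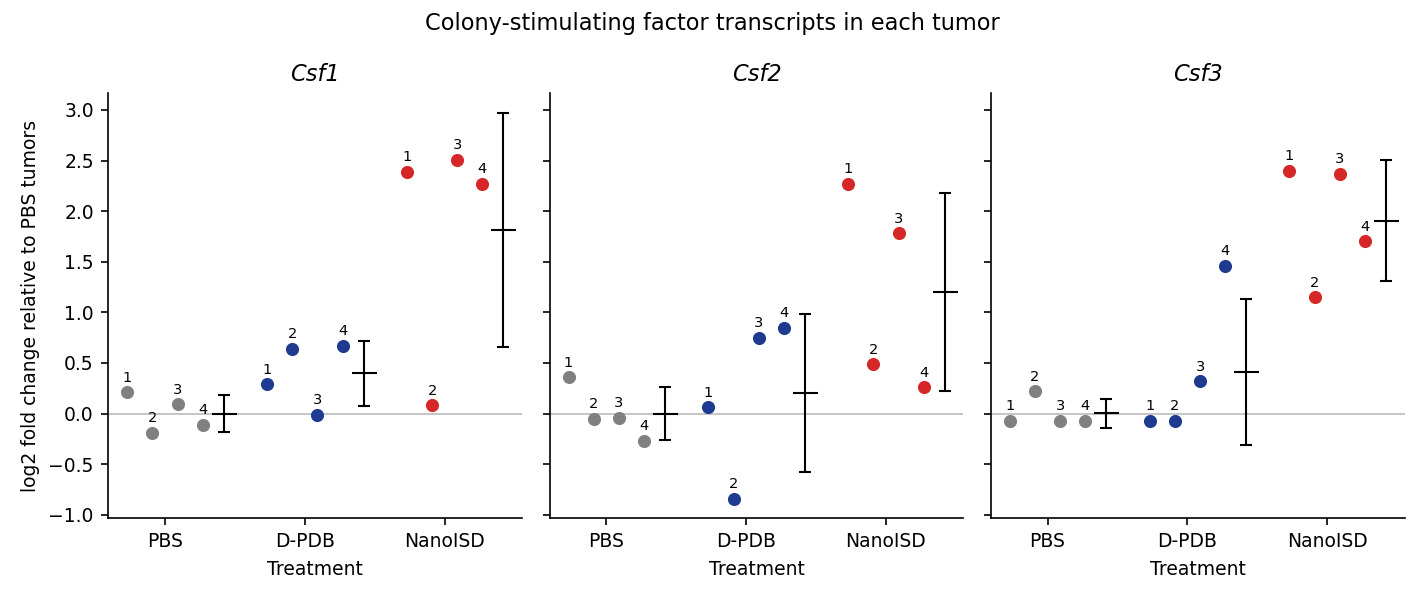
The log2 fold change of *Csf1*, *Csf2* and *Csf3* relative to the PBS-treated tumors is plotted for each tumor (points, numbered within treatment), with the mean and SD of the 4 tumors beside them. All 4 NanoISD points of *Csf3* lie above its PBS points, while tumor 2 of *Csf1* (0.08) and tumor 4 of *Csf2* (0.26) lie within the PBS range.

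Of the 3 factors, 2 were thus called higher after NanoISD than after PBS, in a panel in which 22 of 43 genes (51.2%) were called higher and 0 lower in limma (0 lower also at an unadjusted p of 0.05). *Csf3* was 1 of 18 genes (41.9%) without overlap between the NanoISD-treated and PBS-treated tumors. The median difference of the 3 factors was 1.81, beside a median of 1.20 over all 43 panel genes. By the size of the difference, *Csf3* ranked 14th, *Csf1* 17th and *Csf2* 23rd of the 43 genes. The factors therefore stood in the middle of a panel that was mostly raised.

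The comparison of NanoISD with D-PDB addresses the DNA cargo, since both groups received the polymer, provided that its amounts matched. *Csf1* was at 0.29, 0.64, -0.01 and 0.67 in D-PDB tumors 1 to 4. The 3 high NanoISD-treated tumors exceeded all of these values, and NanoISD tumor 2 lay below 3 of them. The difference was 1.42 on the log2 scale, or 2.67-fold (95% interval 1.29 to 5.50), with an adjusted p of 0.0470 in limma. This call was lost in 16 of 24 alternatives, in which the adjusted p reached 0.116, among them those without D-PDB tumor 1 or 3 or without NanoISD tumor 1, 3 or 4. Without NanoISD tumor 2 the adjusted p was 0.000276.

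*Csf3* was at -0.07, -0.07, 0.32 and 1.46 after D-PDB. D-PDB tumor 4 therefore lay above NanoISD tumor 2 (1.15), and the groups overlapped in these 2 tumors. The difference was 1.50 on the log2 scale, or 2.82-fold (95% interval 1.53 to 5.21), and passed in limma (adjusted p = 0.0157). The call was lost without D-PDB tumor 1, 2 or 3, with adjusted p between 0.0513 and 0.0620, and when only the 2 compared treatments entered the fit (adjusted p = 0.0590).

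*Csf2* was at 0.06, -0.84, 0.75 and 0.85 after D-PDB, the widest spread of the 3 factors in this group. NanoISD tumors 2 and 4 lay within this range and tumors 1 and 3 above it. The difference of 0.99, or 1.99-fold (95% interval 0.941 to 4.22), did not pass in limma (adjusted p = 0.141), nor in any of the 24 alternatives. Thus 2 of the 3 factors were called against D-PDB, where 11 of 43 genes (25.6%) were called higher and 0 lower (0 lower also at an unadjusted p of 0.05). None of the 3 was among the 8 genes (18.6%) without overlap between NanoISD and D-PDB. The median difference of the 3 factors was 1.42, beside 1.01 for the panel.

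After the carrier alone, the means were 0.40 ± 0.32 for *Csf1*, 0.20 ± 0.78 for *Csf2* and 0.41 ± 0.72 for *Csf3* (SD, n = 4). The differences from PBS had adjusted p-values of 0.831, 0.866 and 0.831 in limma. In this comparison 0 of the 43 genes (0%) were called, and 1 had an unadjusted p under 0.05, which was *Cxcl5* and none of the factors. The intervals did not exclude a change in either direction, at 0.638-fold to 2.72-fold for *Csf1*, 0.544-fold to 2.44-fold for *Csf2* and 0.718-fold to 2.45-fold for *Csf3*. The mean of *Csf3* rested on D-PDB tumor 4, without which the difference was 0.06. For *Csf2*, the difference was 0.02 without D-PDB tumor 3, -0.01 without tumor 4 and 0.55 without tumor 2. For *Csf1*, it was 0.31 without tumor 4, 0.32 without tumor 2 and 0.53 without tumor 3. The mean of all 43 genes was highest in D-PDB tumor 4 within its group, at 0.86, against -0.12 to 0.34 in the other D-PDB-treated tumors. The house-keeping genes that set the scale were not level across treatments. The mean of *Gapdh* was -0.32 after NanoISD and -0.145 after D-PDB. *Rpl19* lay between 0.09 and 0.28 after NanoISD and between -0.03 and 0.03 after PBS. *Tbp* lay between 0.12 and 0.19 after D-PDB and between -0.07 and 0.13 after PBS. With each house-keeping gene left out of the scaling in turn, the NanoISD differences from PBS were 1.73 to 1.86 for *Csf1*, 1.12 to 1.25 for *Csf2* and 1.82 to 1.95 for *Csf3*, on the same side of the threshold, whereas the call of *Csf1* against D-PDB was lost without *Gapdh* (1.37, adjusted p = 0.0549 in limma). The 3 comparisons share their groups of tumors, so they are not independent of each other.

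**Figure D2:**
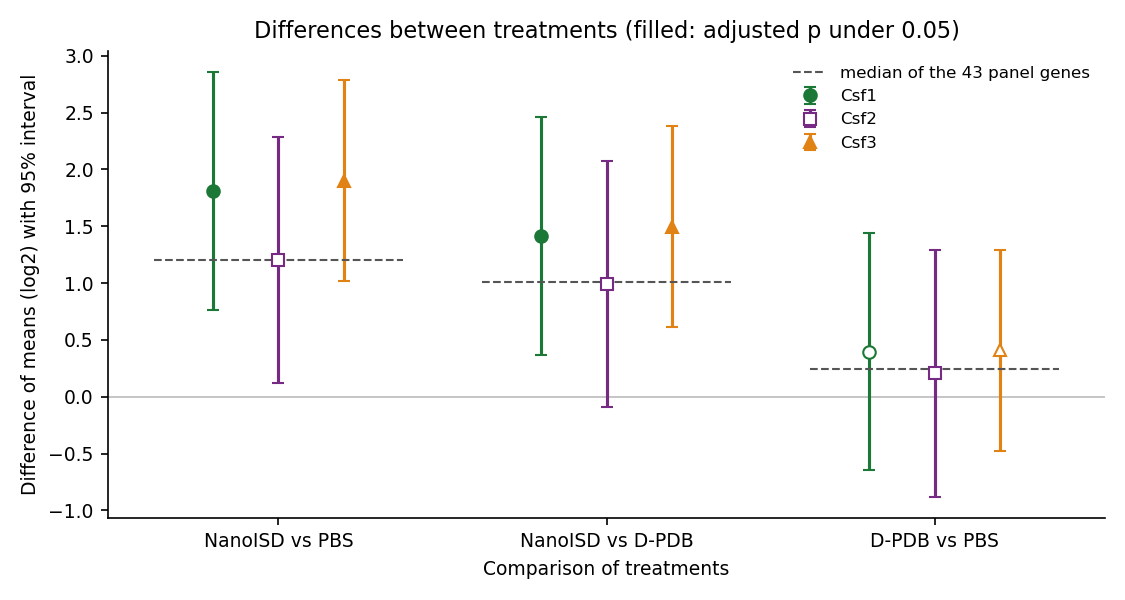
Differences between the mean log2 values of each pair of treatments are plotted for the 3 factors with their 95% intervals from limma, filled where the adjusted p was under 0.05. *Csf1* and *Csf3* are filled for NanoISD against PBS (1.81 and 1.90) and against D-PDB (1.42 and 1.50), *Csf2* is filled in no comparison, and the dashed lines give the median of the 43 genes (1.20, 1.01 and 0.24).

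That *Csf1* and *Csf3* passed and *Csf2* did not does not show that they moved by different amounts, so the difference between each pair of factors was calculated within each tumor and compared between treatments. The rise of *Csf3* over PBS exceeded that of *Csf2* by 0.70 on the log2 scale (95% interval -0.14 to 1.87, two-sided exact permutation p = 0.0857, and p = 0.343 with adjustment over 8 comparisons). *Csf3* was above *Csf2* by 0.13, 0.66, 0.59 and 1.44 in NanoISD tumors 1 to 4, and by -0.43 to 0.27 in the PBS-treated tumors. Without NanoISD tumor 1 the tumors no longer overlapped and the difference was 0.89, with the exact permutation p at 0.0286, the smallest that 3 tumors against 4 allow. *Csf1* exceeded *Csf2* by 0.61 (95% interval -0.57 to 2.16, exact permutation p = 0.371, adjusted p = 0.594), which was 0.15 without NanoISD tumor 4 and 0.95 without NanoISD tumor 2. *Csf1* and *Csf3* differed by -0.09 (95% interval -1.35 to 0.98, exact permutation p = 0.829, adjusted p = 0.886), and the sign turned without NanoISD tumor 2 (0.24) or PBS tumor 1 (0.0042). Against D-PDB, the corresponding differences were 0.50, 0.42 and -0.08, with exact permutation p-values of 0.257, 0.571 and 0.886. With 4 tumors against 4 and 8 comparisons, a pair that alone reached the smallest exact p would have an adjusted p of 0.229, so no single pair could pass. The adjusted test thus says little about whether the factors differ, and the intervals allow differences of more than 1 log2 unit.

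The tumors differed in which factor was low. In NanoISD tumor 2, *Csf3* stood at 1.15 while *Csf1* stood at 0.08, a gap of -1.07 between *Csf1* and *Csf3*. In NanoISD tumor 4 it was *Csf2* that was low, at 0.26, with *Csf1* at 2.27, a gap of 2.01 between *Csf1* and *Csf2*. NanoISD tumors 1 and 3 had all 3 factors above all 8 PBS-treated and D-PDB-treated tumors, tumor 4 had 2 of 3, and tumor 2 had 0 of 3. D-PDB tumors 2 and 3 showed opposite gaps between *Csf1* and *Csf2*, of 1.48 and -0.76. In the PBS-treated tumors this gap stayed between -0.15 and 0.16.

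None of the other hematopoietic cytokines that were both listed and measured passed the threshold in any comparison. *Il6*, which was called, is not in this list and is given below with the inducers. Of the 10 that were listed, 3 were measured, with a median difference of -0.04 between NanoISD and PBS beside 1.20 for the panel, and 0 of the 3 passed where 51.2% of the panel did. Against D-PDB their median was 0.57, beside 1.01 for the panel, and *Il3* (0.22) and *Il7* (0.62) then had positive differences. The D-PDB means of *Il3* and *Il7* were -0.59 and -0.665, and their NanoISD means were also below 0. *Kitl*, which encodes stem cell factor, was higher by 0.82 after NanoISD than after PBS (adjusted p = 0.106 in limma), and NanoISD tumor 1 stood at 2.13 while the other NanoISD-treated tumors were between 0.22 and 0.51. *Il7*, a lymphoid growth factor, differed by -0.04 (adjusted p = 0.929 in limma). *Il3*, the neighbor of *Csf2*, differed by -0.38 (adjusted p = 0.305 in limma), the lowest difference of the 43 genes, with values of -0.38, -0.13, -0.63 and -0.36 after NanoISD and -0.39, 0.36, -0.12 and 0.15 after PBS. Within each tumor, *Csf2* lay above *Il3* by 2.65, 0.62, 2.41 and 0.62 after NanoISD and by 0.75 or less after PBS. This gap differed by 1.58 between NanoISD and PBS (95% interval -0.13 to 3.07, exact permutation p = 0.0857, and p = 0.343 with adjustment over 8 comparisons). Set against D-PDB, the gap differed by 0.78 (exact permutation p = 0.314, adjusted p = 0.594), and by 0.32 without D-PDB tumor 2 or 1.10 without NanoISD tumor 2 or 4. The same limit on the adjusted p holds for this pair.

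Among 7 cytokines listed as known inducers of colony-stimulating factors, 3 were measured. *Il6*, a cytokine of the acute inflammatory response, was higher by 3.68 after NanoISD than after PBS (adjusted p = 0.000448 in limma). *Tnfa*, which encodes tumor necrosis factor, differed by 0.54 (adjusted p = 0.188 in limma), and *Lta*, which encodes lymphotoxin alpha, by 0.12 (adjusted p = 0.770 in limma). Against D-PDB, *Il6* and *Tnfa* passed and *Lta* did not. The D-PDB mean of *Tnfa* lay below that of PBS, at -0.48, with tumors between -0.74 and -0.23. Its difference from D-PDB thus holds this lower level as well as the higher NanoISD mean. These are 1 of 3 against PBS and 2 of 3 against D-PDB, where 51.2% and 25.6% of the panel were called.

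Several chemokines that attract neutrophils or monocytes, or that macrophages and dendritic cells produce, were called higher. The 6 genes listed as ligands of CXCR2, the receptor through which neutrophils are attracted, had a median difference of 1.56 between NanoISD and PBS. Of the 6, 3 (*Cxcl1*, *Cxcl2* and *Cxcl5*) were called higher. This is about the share called over the whole panel, 22 of 43 (51.2%). All 3 measured monocyte chemoattractants, *Ccl2*, *Ccl7* and *Ccl8*, were called, with a median of 2.23, beside the same panel share of 51.2%. Of the ligands of CCR4, which macrophages and dendritic cells produce, *Ccl17* was called (1.57) and *Ccl22* was not (1.20, adjusted p = 0.0719 in limma). Against D-PDB, *Cxcl1* alone of these 11 chemokines passed (adjusted p = 0.0470 in limma), where 11 of 43 panel genes (25.6%) did. The medians stand beside that of the panel, 1.20, and a list was not tested against other genes. The platelet genes moved less evenly, with *Pf4* between -0.45 and 0.47 after PBS, between -0.04 and 1.33 after D-PDB, and between 0.12 and 3.02 after NanoISD, and *Ppbp* between -0.34 and 0.47, -1.19 and 0.34, and -0.65 and 1.08. The sum of the 2 log2 values ranged from -0.66 to 0.55, -1.20 to 1.67 and -0.53 to 4.10 in these groups, and its part in the changes of the factors was not tested.

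**Figure D3:**
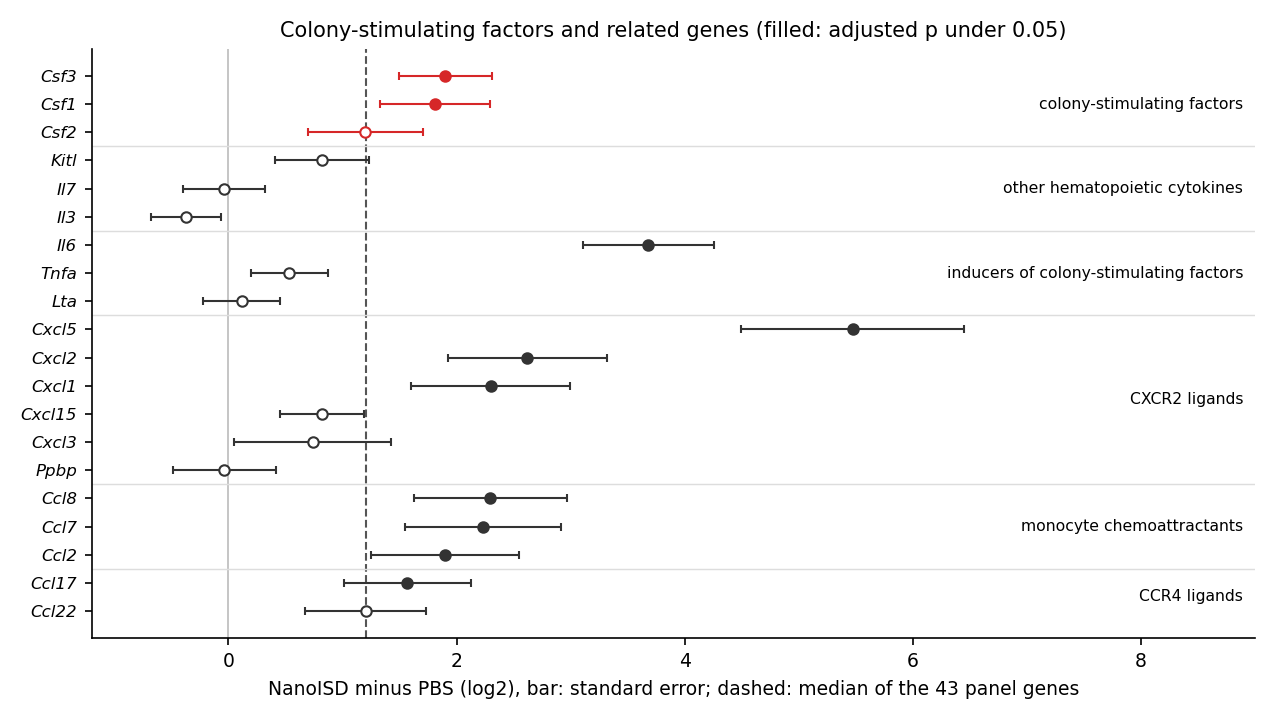
The difference between NanoISD and PBS on the log2 scale is plotted with its standard error for the 3 factors (red) and for the measured genes of 5 lists, filled where the adjusted p in limma was under 0.05. *Csf3* (1.90) and *Csf1* (1.81) lie to the right of the panel median of 1.20 (dashed), close to *Ccl2* (1.90), while *Il7* and *Il3* lie at or below 0.

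To describe which genes followed each factor most closely, Pearson's r of the log2 values was calculated over the 12 tumors. This r holds the differences between treatments, and all values of a tumor share its RNA and scaling, so r was also calculated on deviations from the treatment means. *Csf1* was most like *Ccl5* (r = 0.95, and 0.91 within treatments), *Ccl4* (0.93 and 0.83) and *Ccl3* (0.91 and 0.76). In NanoISD tumor 2, *Ccl5* was at 0.14 and *Csf1* at 0.08, while in D-PDB tumor 2 they were at 1.32 and 0.64. *Csf2* was most like *Ccl20* (0.89 and 0.81), *Cxcl1* (0.89 and 0.81) and *Il6* (0.85 and 0.83). 8 of the 12 values of *Ccl20* are its shared lowest value of 0, so that this r rests on 4 tumors. *Csf3* was most like *Il6* (0.93 and 0.71), *Ccl3* (0.92 and 0.71) and *Il10* (0.92 and 0.70), the last of which encodes an anti-inflammatory cytokine. Within treatments these 3 genes ranked 6th, 7th and 8th, and *Cxcl14* (0.81), *Ccl17* (0.79), *Ccl20* (0.75) and *Csf2* (0.74) were among those above them. Over the other 42 panel genes the median r was 0.72 for *Csf1*, 0.66 for *Csf2* and 0.77 for *Csf3*, so high values were common. *Il3* had the lowest r over the 12 tumors with each of them, at -0.34, -0.35 and -0.21. Within treatments its r was -0.33, -0.40 and -0.01, and *Ccl28* was lowest for *Csf2* (-0.41) and *Csf3* (-0.21).

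Among the factors themselves, *Csf2* and *Csf3* had an r of 0.84 over the 12 tumors and 0.74 within treatments. *Csf1* and *Csf3* had 0.86 and 0.58, and *Csf1* and *Csf2* had 0.67 and 0.35. The within-treatment value for *Csf1* and *Csf2* was 33rd of the 42 genes set against *Csf1*, so the pair varied together less than most pairs of *Csf1* with a panel gene did in these tumors.

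**Figure D4:**
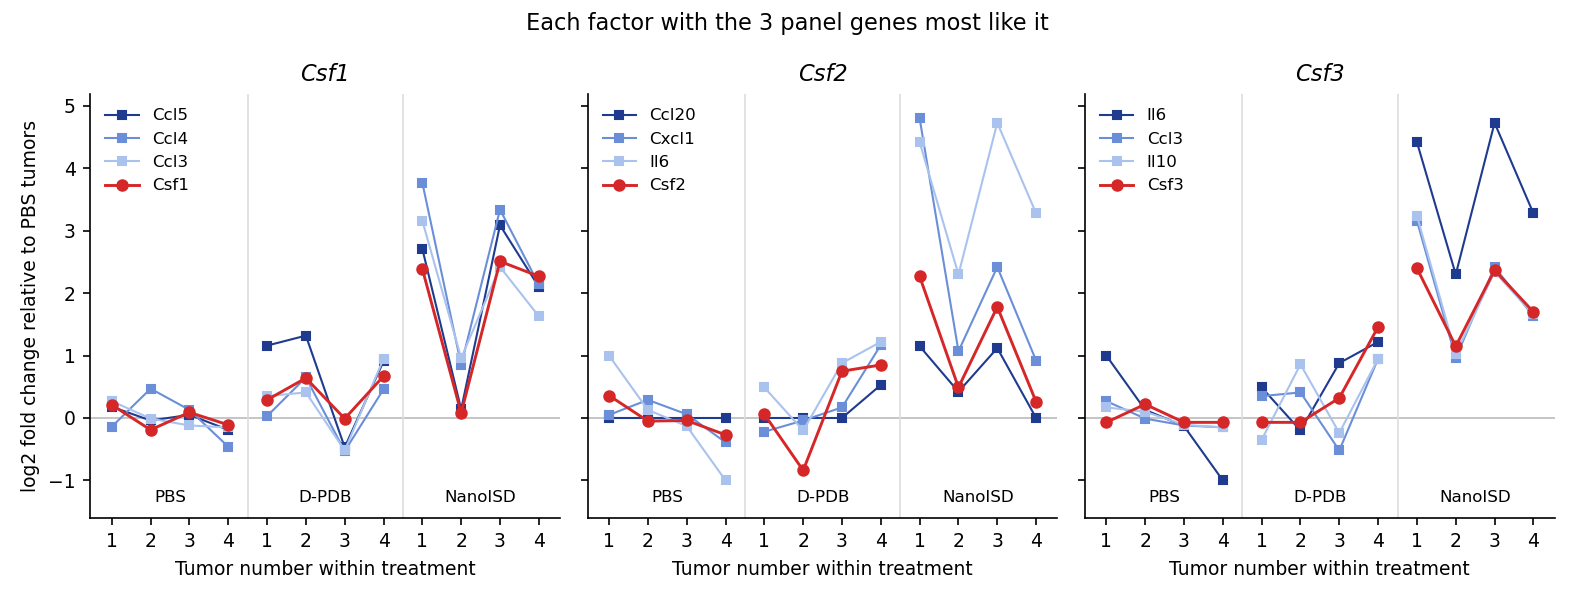
The log2 fold change of each factor (red circles) is plotted in the 12 tumors with the 3 panel genes most like it (blue squares); lines join tumors of a treatment as a guide, and the tumor numbers have no order. *Csf1* and *Ccl5* are both low in NanoISD tumor 2 (0.08 and 0.14), and *Csf2* (0.26) and *Ccl20* (0.00) are both low in NanoISD tumor 4.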

How the data were processed

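The authors hybridized 100 ng of tumor RNA to the panel, used nSolver to process the counts of barcodes, and deposited a table of log2 fold changes relative to the PBS-treated tumors. The nSolver version and background threshold are not given in the sources used here. In the deposited log2 values the PBS-treated tumors averaged 0 within 0.0025 for each gene, and the house-keeping genes averaged 0 within 0.002 in each tumor. No further scaling, filter or pseudocount was applied. The 3 factors and all gene lists were chosen with earlier results of these data known.

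Groups and tumor numbers came from the sample titles. The 43 panel genes were tested with limma 3.58.1 (R 4.3.3), with 3 treatments in 1 fit of 12 tumors, Benjamini-Hochberg adjustment over the 43 genes of each comparison, and a threshold of 0.05. Intervals are limma's at 95%, unadjusted. Pairs of genes were compared by two-sided exact permutation tests over 70 splits, with intervals by inversion of the test (Python 3.11.15 with numpy 2.4.6; scipy 1.17.1 for checks). No hybridization batch is named. Named genes are the 3 factors, for each the 3 panel genes of highest and the 1 of lowest Pearson's r, and the measured genes of the lists. *Ccl20* and *Cxcl17*, *Cxcl5* for the carrier, and *Cxcl14* and *Ccl28* for r within treatments were named after their values were seen. All 48 gene names matched RefSeq (GRCm38.p6), 47 by symbol and 1 as a synonym. The measurements name no genome build. On simulated data for NanoISD against PBS, 10 of 43 genes were changed by 1, 2 or 3 log2 units. Of these 10, limma recovered 1.72, 7.22 and 9.36, with 0.2, 0.44 and 0.4 false calls. In the tumors, 22 of 43 genes were called for this comparison, and the SD of *Csf1* was 1.16 after NanoISD against 0.18 after PBS. Whether the same recovery holds for the 3 factors was not tested.

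Alternatives were scaling to 4 of the 5 house-keeping genes, each tumor left out, the compared treatments alone, array weights, a replicate block, robust or no moderation, a panel without genes at a shared lowest value, and exact permutation tests. As alternatives, the exact permutation tests were judged on their unadjusted p.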

Additional observations from a re-analysis of the deposited data

Results flagged for a closer look

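For each factor and each pair of genes, the gap between the highest or lowest tumor of a treatment and its nearest neighbor was divided by the range of the 4 tumors and compared with Dixon's limit of 0.829. Of 21 groups, 2 exceeded it, where chance gives about 5% for values without ties. Since 1 of these 2 is set by tied values, the number is not read against chance.

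*Csf1* after NanoISD was such a group, since tumor 2 was at 0.08, far from the range of 2.27 to 2.51 in its group, and the gap made up 0.901 of the whole range. The mean of the 43 panel genes was also lowest in this tumor within its group, at 0.58. In the same tumor *Csf3* stood at 1.15, above all PBS-treated tumors. The part of the lower panel mean in the *Csf1* value was not tested.

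*Csf3* after PBS was the other, since tumor 2 was at 0.22 and the remaining tumors shared the value -0.07, so that the gap was the whole range (1), as 3 tied values require.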

How the results depend on the processing

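*Csf3* against PBS kept its call in all 24 alternatives, where the exact permutation test counts by its unadjusted p of 0.0286. *Csf1* against PBS kept it in 23, and the exact permutation test (1.81, p = 0.0857) was the exception. *Csf1* against D-PDB passed in 8 of 24. It was lost when scaled without *Gapdh* (1.37) and, at an unchanged difference of 1.42, with only the compared treatments, the replicate block, robust moderation, no moderation and the exact permutation test, and leaving out single tumors gave 1.18 to 1.99. *Csf3* against D-PDB was lost with only the compared treatments and by the exact permutation test (1.50, p = 0.0571), and leaving out single tumors gave 1.33 to 1.84. *Csf2* against PBS ranged from 0.84 to 1.51 with single tumors left out, and was 0.77 with array weights. Its difference from D-PDB-treated tumors did not pass in any setting and ranged from 0.64 (without NanoISD tumor 1) and 0.65 (without D-PDB tumor 2) to 1.31 (without NanoISD tumor 4) with single tumors left out. *Csf2* in D-PDB against PBS ranged from -0.01 to 0.55 and turned without D-PDB tumor 4. The cause of these shifts was not tested.

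The number of panel genes called for NanoISD against D-PDB was 11, 2 with only the compared treatments, and 5 to 20 with single tumors left out. Among the D-PDB-treated tumors, leaving out tumor 1 or 3 gave 5, tumor 2 gave 7 and tumor 4 gave 17, and leaving out NanoISD tumor 2 gave 20. For NanoISD against PBS it stayed between 16 and 26, beside 22.

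With single tumors left out, the gap between *Csf1* and *Csf2* ranged from -0.046 to 0.85 against D-PDB and turned without NanoISD tumor 4. That between *Csf1* and *Csf3* ranged from -0.31 to 0.24 against PBS and from -0.34 to 0.25 against D-PDB, where it turned without D-PDB tumor 1 (0.04) or 2 (0.16) or NanoISD tumor 2 (0.25). That between *Csf3* and *Csf2* ranged from 0.46 to 0.89 against PBS.

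The replicate numbers are not stated to mark a shared animal or day, and of 12 same-numbered pairs 3 had deviations correlated over 0.1 (r from -0.52 to 0.47), so they were not taken to pair the tumors. With the replicate block, the difference of *Csf3* from PBS was 1.90 and that of *Csf2* 1.20, and both kept their side of the threshold. The block permutation of gene pairs cannot go below p = 0.125. Values are log2 with no counts, so the limit set by depth is unknown, and the shared lowest value of *Csf3* bounds what its low tumors can show.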

Other observations

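Within each tumor, the rank of a factor among the 43 panel genes gives its standing beside the other genes. A shift shared equally by all genes does not alter the rank, but unequal responses of the other genes do. In NanoISD tumors 1 to 4, *Csf1* ranked 21st, 31st, 7th and 6th, *Csf2* 23rd, 19th, 18th and 31st, and *Csf3* 20th, 6th, 13th and 12th. Among the NanoISD-treated tumors, *Csf1* was within the 7 highest genes in tumors 3 and 4, *Csf3* in tumor 2, and *Csf2* in none. In D-PDB tumor 2, *Csf2* was the lowest of the 43 genes at -0.84, while in D-PDB tumor 3 it ranked 3rd at 0.75. The ranks are relative to PBS-treated tumors and are given as values with no test.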
